A study of Mus musculus with 9 samples.

Results

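Osteoblast genes of the fracture callus are described here, from Runx2, which commits cells to the bone-forming lineage, to the osteocalcin genes Bglap and Bglap2 of the mature cell. The members are the rows of the expression table whose symbol is Runx2, Sp7, Col1a1, Col1a2, Sparc, Alpl, Ibsp, Spp1, Bglap or Bglap2, which gave 10 genes of the 22054 in the table, and all 10 passed the filter on low counts. Callus was taken 7 days after a femoral fracture fixed with an intramedullary needle in male C57BL/6J mice, whose age the labels give as 7 weeks, and poly(A) RNA was sequenced. The 9 libraries form 3 groups of 3, and all mice carried the fracture and received daily intraperitoneal injections of 200 μl for a week: PBS in the control group, the STING inhibitor H-151 at 750 nmol in the second, and the STING agonist SR-717 at 30 mg/kg in the third. STING is the adaptor that relays the cytosolic DNA sensor cGAS to interferon and NF-κB signaling, and the groups were compared to see what its modulation does during early healing. The labels number the libraries as replicate biosamples without saying that each came from its own mouse, so p-values measure the spread between these libraries. Callus is a mixture of tissues, and in bulk RNA fewer osteoblasts and less RNA per osteoblast cannot be told apart.

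Osteoblasts arise in the callus from periosteal and marrow progenitors. Runx2 opens the program and Sp7 (osterix) acts downstream of it, after which the cells lay down a matrix of type I collagen, supply phosphate for mineral through tissue-nonspecific alkaline phosphatase, and finally secrete osteocalcin. Bone sialoprotein and osteopontin bind mineral and integrins, and osteopontin is also made by osteoclasts, macrophages and hypertrophic chondrocytes.

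Several of these genes are known targets of Runx2, so the 250 bases upstream of the start sites in RefSeq (GRCm38.p6) were searched for the core Runx motif ACCACA on both strands. The table of upstream windows held 7 of the 10 members in 9 windows, and 3 windows had a match, against 14% of all 32851 windows. The Runx2 window matched 80 bases upstream of the RefSeq start. The Bglap window (chr3:88384467-88384716, minus strand) matched 132 bases upstream, and the Spp1 window (chr5:104434861-104435110, plus strand) matched 128 bases upstream. Both are shown 5′ to 3′ as far as the base before the start site, with the match in capitals, because Bglap ranged widely between the libraries and Spp1 followed Runx2 in its level.
Bglap: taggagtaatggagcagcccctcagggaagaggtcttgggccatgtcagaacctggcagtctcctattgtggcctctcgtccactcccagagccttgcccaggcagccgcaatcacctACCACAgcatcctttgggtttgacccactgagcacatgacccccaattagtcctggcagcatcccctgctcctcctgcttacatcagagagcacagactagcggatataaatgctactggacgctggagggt
Spp1: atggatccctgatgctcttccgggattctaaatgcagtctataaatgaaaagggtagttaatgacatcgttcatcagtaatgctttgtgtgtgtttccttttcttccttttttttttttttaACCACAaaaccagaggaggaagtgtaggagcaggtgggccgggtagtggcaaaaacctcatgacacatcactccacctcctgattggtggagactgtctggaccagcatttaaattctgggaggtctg
The letters alone show no binding, and no match was found in the windows of Alpl, Ibsp, Col1a2 and Sparc or in the other window of Spp1. Ibsp, without a match, also followed Runx2 in its level, and Bglap, with a match, followed it weakly. A link between match and level was not tested.

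A second set of sequences bears on how far the osteocalcin genes can be separated. Bglap (chr3:88383501-88384464) and Bglap2 (chr3:88377736-88378699) lie on the minus strand of GRCm38, 4801 bases apart, and in GENCODE M21 their coding sequences of 285 bases differ at 4 positions, an identity of 98.6% with an identical run of 241 bases. Joined coding exons 2 and 3, at 88384175-88384207 and 88383974-88384031 in Bglap and at 88378410-88378442 and 88378209-88378266 in Bglap2, are the same 91 bases in both genes, so they are given in capitals throughout.
Bglap exons 2 and 3: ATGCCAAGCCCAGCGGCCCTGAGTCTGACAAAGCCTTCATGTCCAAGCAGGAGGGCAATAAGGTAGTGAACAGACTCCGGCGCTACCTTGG
Bglap2 exons 2 and 3: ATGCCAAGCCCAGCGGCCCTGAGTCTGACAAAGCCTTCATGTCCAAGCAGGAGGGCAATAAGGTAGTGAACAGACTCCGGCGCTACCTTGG
Of all 50-base windows of the Bglap transcript 74.7% occur in Bglap2 as well, and of 150-base windows 31.6%. The division of reads between Bglap and Bglap2 is therefore uncertain, and they are the only 2 members whose deposited counts were not whole numbers. Their sum does not rest on that division, though sequence shared with other genes, such as Bglap3, was not examined.

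Library totals ran from 16987398 to 23272480 expected counts. The 10 genes took 4.30%, 7.88% and 9.03% of all counts in SR-717 replicates 1, 2 and 3, 7.57%, 6.86% and 7.79% in the H-151 libraries and 6.58%, 8.08% and 8.98% in the PBS libraries. SR-717 replicate 1 stood apart from the other 8 libraries. On the first principal component of log2 CPM (counts scaled to library size with TMM factors), which held 46.6% of the variance, it lay at 100.6, PBS replicate 1 at 38.8 and the other 7 between -28.8 and -4.03. Values without it are given below for the results it moves most.

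The order of the members by mean TPM, the deposited level scaled for library size and gene length, was Col1a1, Sparc, Col1a2, Spp1, Ibsp, Bglap2, Bglap, Alpl, Sp7 and Runx2. The most abundant, Col1a1, ranked between 2 and 16 among all genes by TPM, whereas Runx2 ranked between 2119 and 4006. Col1a1 lay above Sparc in only 5 of 9 libraries and Sparc above Col1a2 in 7, and these neighbors did not differ beyond their spread. Ibsp likewise lay above Bglap2 in 7 libraries. Spp1 lay below Col1a2, Ibsp below Spp1, Bglap below Bglap2 and Sp7 below Alpl in all 9 libraries, while Bglap exceeded Alpl, and Sp7 exceeded Runx2, in 8.

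**Figure D1:**
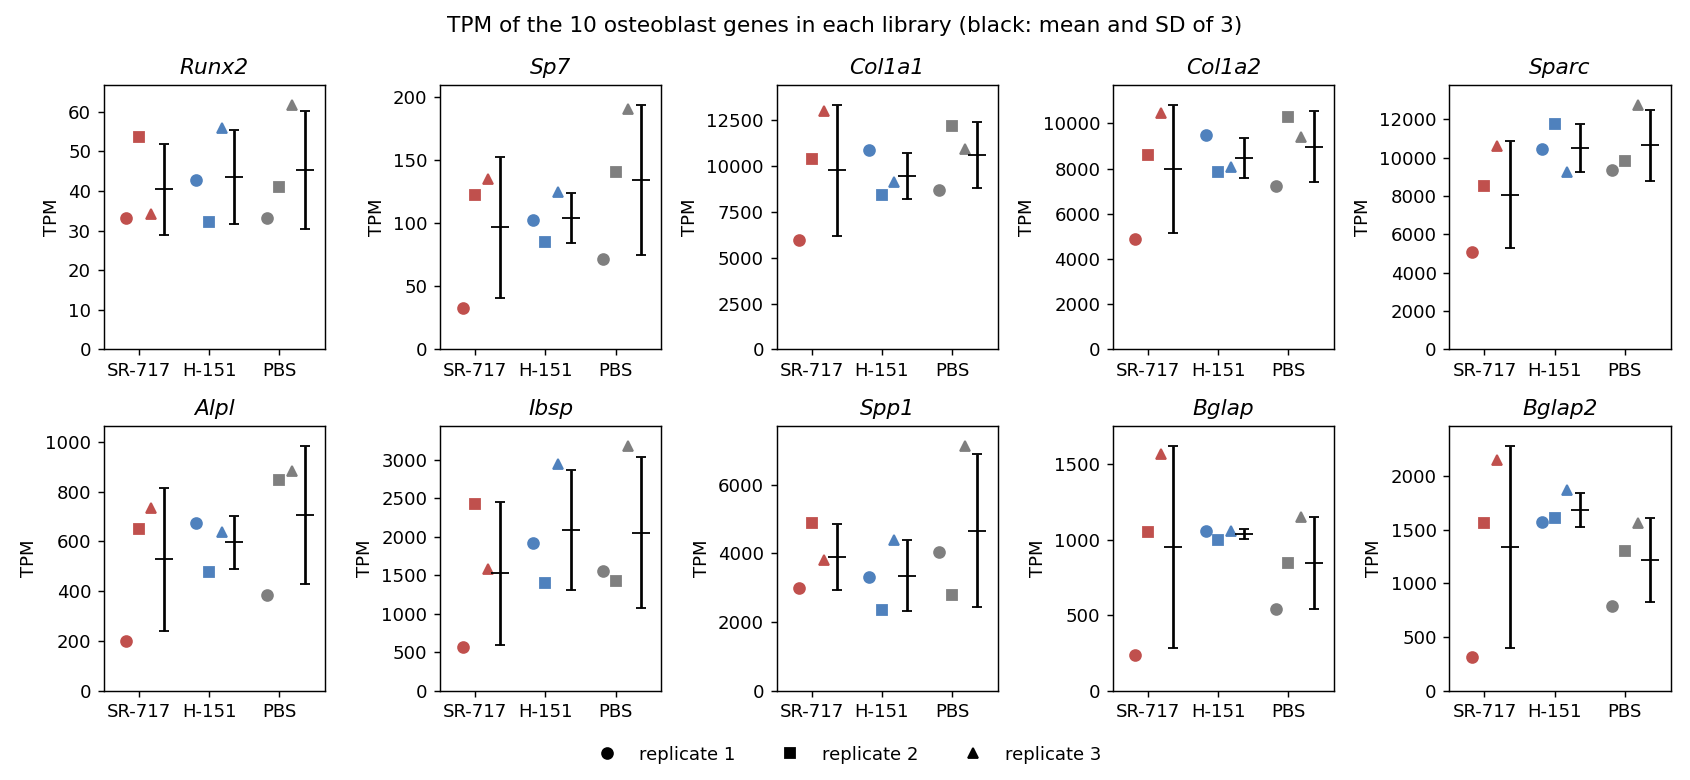
TPM of each of the 10 genes (vertical axes from 0) in the 9 libraries, with colors for groups, symbols for replicate numbers and black bars for the mean and SD of 3 libraries. SR-717 replicate 1 is the lowest point for 8 genes, at 33.0 TPM for Sp7 and 311 TPM for Bglap2, and is not the lowest for Runx2 and Spp1.

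No member passed a test between groups. With edgeR (quasi-likelihood, Benjamini-Hochberg adjusted p under 0.05) 0 of 10 members were called in SR-717 against PBS, where 0% of 14070 tested genes were, 0 in H-151 against PBS (0% of 14085) and 0 in SR-717 against H-151 (0% of 14151). The whole table held 97, 91 and 146 genes at an unadjusted p under 0.05, and DESeq2 called 0, 0 and 1 gene. That 1 gene was Myh8, which encodes a neonatal myosin heavy chain, named here after its values were seen. At an unadjusted p under 0.05 with a 1.5-fold change, 0 members passed in each comparison, against 0.519% of tested genes in SR-717 against PBS, 0.426% in H-151 against PBS and 0.756% in SR-717 against H-151. Groups of library values in CPM did not overlap for 0 members in each comparison, against 3.75%, 3.87% and 5.18% of tested genes in the same order. In TPM the groups were apart for 1 member, Bglap2 in H-151 against PBS, with 5.25%, 3.32% and 4.12% of tested genes apart in the 3 comparisons. Adjusted p of the members ran from 0.996 to 1.00. Both treated groups were set against the same 3 PBS libraries, so the treated groups' values against PBS are not independent.

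The labels give no pairing by replicate number. A block by number was fitted because same-numbered libraries of each treated group and PBS deviated together in these data. Its p-values come from the data that prompted it, and whether the libraries are paired is not known. With this block the genes at the unadjusted thresholds went from 73 to 443 in SR-717 against PBS. In H-151 against PBS they went from 60 to 262. Again 0 members were among them, and 0 genes had an adjusted p under 0.05 in edgeR. At an unadjusted p under 0.05 alone the replicate block gave 534 and 431 genes.

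The median log2 fold change of the 10 genes was -0.14 in SR-717 against PBS, -0.06 in H-151 against PBS and -0.09 in SR-717 against H-151, beside medians of 0.01, -0.02 and 0.02 over all tested genes. Fold changes were negative for 7, 6 and 7 of 10 members, and for 47.8%, 55.8% and 46.6% of all genes. Both SR-717 tallies depended on single libraries. Without SR-717 replicate 1, 3 of 10 members were negative in SR-717 against PBS (median 0.06) and 2 of 10 in SR-717 against H-151 (median 0.22), beside 53.1% and 51.3% of all genes. Without PBS replicate 3, Col1a1, Ibsp and Spp1 turned positive in SR-717 against PBS. Without H-151 replicate 3, Sp7, Col1a2, Alpl and Ibsp turned positive in SR-717 against H-151.

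**Figure D2:**
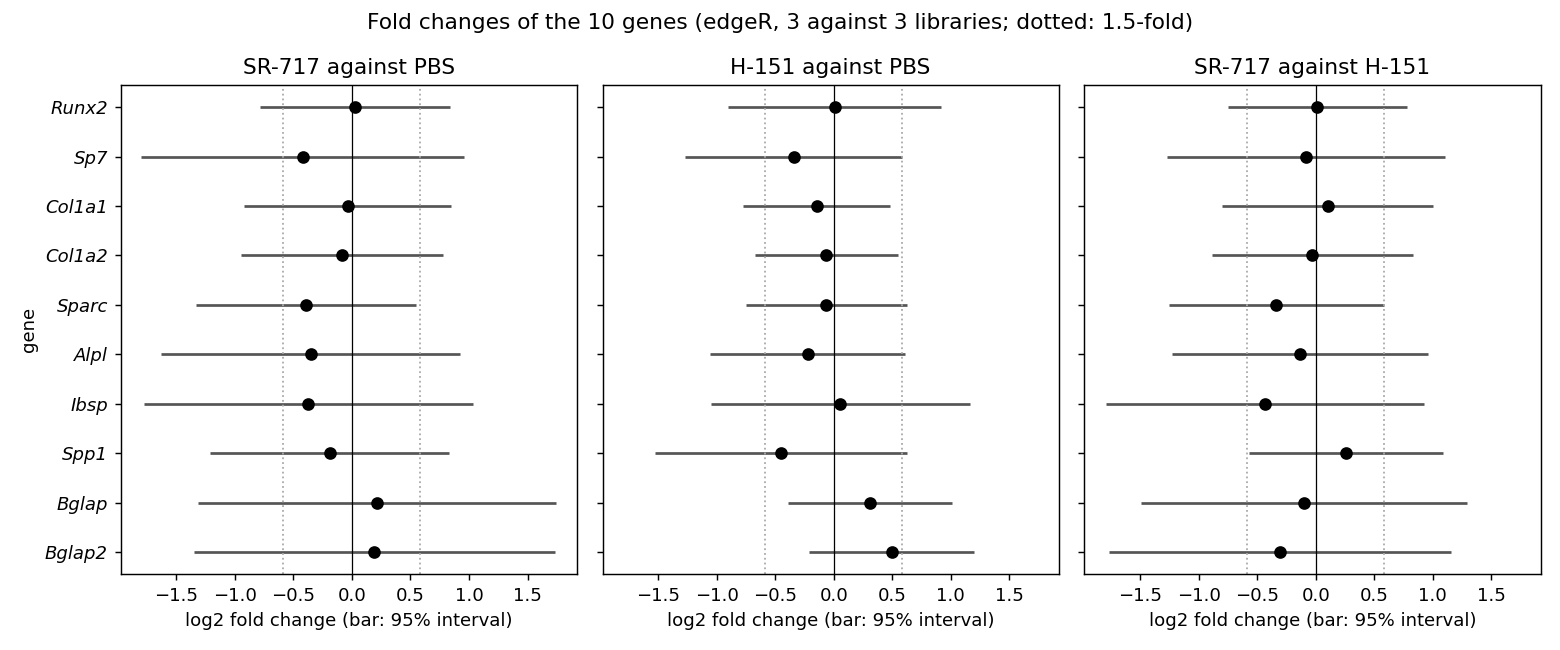
Log2 fold change (horizontal axis, points) and 95% interval (bars) of each gene in the 3 comparisons, with dotted lines at a 1.5-fold change. All 30 intervals span 0, and each reaches beyond the dotted lines on at least 1 side.

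Runx2 (chr17:44495987-44814797, minus strand) encodes the transcription factor that starts osteoblast differentiation. Its TPM were 33.2, 53.6 and 34.3 in SR-717 replicates 1, 2 and 3, 42.7, 32.1 and 55.8 in the H-151 libraries and 33.1, 41.0 and 61.8 in the PBS libraries. Each group held a library between 32.1 and 33.2 TPM and a library at 53.6 TPM or above, and the groups overlapped almost fully. The log2 fold change was 0.03 ± 0.34 (SE) in SR-717 against PBS, 0.01 ± 0.38 in H-151 against PBS and 0.01 ± 0.32 in SR-717 against H-151. Intervals of these differences reached from -0.78 to 0.84, from -0.90 to 0.92 and from -0.75 to 0.78, so a 1.5-fold change either way lay inside each of them.

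Sp7 (chr15:102356606-102367182, minus strand) encodes osterix, the factor needed for preosteoblasts to become osteoblasts. Its TPM were 33.0, 122.2 and 135.3 in the SR-717 libraries, 102.7, 84.9 and 125.0 in H-151 and 71.9, 140.6 and 191.0 in PBS. SR-717 replicate 1 was lowest by far and PBS replicate 3 highest, while the H-151 libraries fell between. The log2 fold change was -0.42 ± 0.57 in SR-717 against PBS (95% interval -1.80 to 0.96), -0.34 ± 0.39 in H-151 against PBS (-1.27 to 0.58) and -0.08 ± 0.49 in SR-717 against H-151. Without SR-717 replicate 1 the first of these moved to -0.01 and the last turned to 0.31, and without PBS replicate 3 the first was likewise -0.01. Under the replicate block Sp7 was at -0.51 ± 0.22 in SR-717 against PBS, with an unadjusted p of 0.0679 and an adjusted p of 0.999.

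The ratio of Sp7 to Runx2 sets the later factor against the earlier in the same library. In TPM it was 0.994, 2.28 and 3.95 in SR-717 replicates 1, 2 and 3, 2.41, 2.64 and 2.24 in H-151 and 2.17, 3.43 and 3.09 in PBS. Sp7 was thus level with Runx2 in 1 library and above it in the other 8, and both extremes of the ratio lay in the SR-717 group. SR-717 minus PBS in mean log2 ratio was -0.46, and 0.08 without SR-717 replicate 1.

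Type I collagen is a heterotrimer of chains from Col1a1 (chr11:94936224-94953042, plus strand) and Col1a2 (chr6:4504814-4541544, plus strand), and forms the organic matrix of bone, though fibrous tissue makes it too. Col1a1 TPM were 5941, 10349 and 13015 in the SR-717 libraries, 10853, 8392 and 9097 in H-151 and 8678, 12196 and 10931 in PBS. Col1a2 TPM were 4890.1, 8615 and 10469 in SR-717, 9476, 7836 and 8059 in H-151 and 7247, 10286 and 9389 in PBS. For both chains the SR-717 group held the lowest library, replicate 1, and the highest, replicate 3, with the other groups inside its range. Col1a1 was at -0.04 ± 0.37 on the log2 scale in SR-717 against PBS (interval -0.92 to 0.85) and at -0.15 ± 0.27 in H-151 against PBS (-0.78 to 0.48). Col1a2 was at -0.09 ± 0.36 and -0.07 ± 0.26 in the same comparisons, and SR-717 against H-151 gave 0.10 ± 0.37 for Col1a1 and -0.03 ± 0.35 for Col1a2. In CPM these chains had the narrowest ranges of the 10 genes, with a highest value 1.96 and 1.91 times the lowest. In TPM the factors were 2.19 and 2.14, and Runx2 had the narrowest range at 1.92 times.

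The ratio of the chains varied far less than their levels and fell in a different band in each group. In TPM, Col1a1 was 1.21, 1.20 and 1.24 times Col1a2 in the SR-717 libraries, 1.15, 1.07 and 1.13 times in H-151 and 1.20, 1.19 and 1.16 times in PBS. All H-151 libraries lay below all PBS libraries, which lay below all SR-717 libraries. The mean log2 ratio was 0.29 ± 0.03 (SD, n = 3) in SR-717, 0.16 ± 0.05 in H-151 and 0.24 ± 0.02 in PBS. A two-sided exact permutation test, added after these values were seen, gave p = 0.1 for each pair of groups, the smallest 3 against 3 libraries can give, and an adjusted p of 0.4 over 12 tests (4 ratios in 3 comparisons). In CPM, which uses the same counts and so is no separate check, the bands were 1.33 to 1.38 in SR-717, 1.19 to 1.27 in H-151 and 1.29 to 1.33 in PBS. The gap between SR-717 and PBS was narrow. Their nearest libraries were at 1.2013 and 1.1975 in TPM and at 1.3333 and 1.3293 in CPM. With any library left out the SR-717 minus PBS difference in log2 ratio stayed between 0.03 and 0.06 and the H-151 minus PBS difference between -0.11 and -0.06. Since these groups do not overlap, leaving out a library could not change the sign, and only the size could move. Taken to Col1a2 in CPM, 2.33% of all tested genes had ratios that did not overlap in SR-717 against PBS, 2.34% in H-151 against PBS and 2.93% in SR-717 against H-151. 

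Sparc (chr11:55394500-55423183, minus strand) encodes osteonectin, a glycoprotein that binds collagen and calcium and is made by many stromal cells. Its TPM were 5071, 8499.7 and 10615 in SR-717, 10459.9, 11768 and 9267 in H-151 and 9334, 9799.6 and 12763 in PBS. SR-717 replicate 1 was lowest and PBS replicate 3 highest. The log2 fold change was -0.39 ± 0.39 in SR-717 against PBS (-1.33 to 0.54), which moved to -0.12 without SR-717 replicate 1. It was -0.06 ± 0.29 in H-151 against PBS (-0.75 to 0.62) and -0.34 ± 0.38 in SR-717 against H-151. Of the members Sparc had the largest share of its log2 CPM sum of squares between groups, 22.8%.

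Alpl (chr4:137741733-137796384, minus strand) encodes tissue-nonspecific alkaline phosphatase, which frees phosphate by cleaving pyrophosphate. Its TPM were 199.5, 649.4 and 735.6 in SR-717, 673.3, 475.6 and 639.5 in H-151 and 385.1, 847.5 and 884.7 in PBS. The library order was nearly that of Sp7, with SR-717 replicate 1 lowest, PBS replicate 1 second lowest and PBS replicate 3 highest. Alpl was at -0.35 ± 0.53 in SR-717 against PBS (-1.63 to 0.93), at -0.22 ± 0.35 in H-151 against PBS (-1.06 to 0.61) and at -0.14 ± 0.45 in SR-717 against H-151. Without SR-717 replicate 1 the first of these was 0.03.

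Ibsp (chr5:104299171-104311469, plus strand) encodes bone sialoprotein, a nucleator of mineral. Its TPM were 572, 2428 and 1582 in SR-717, 1925, 1403 and 2942 in H-151 and 1557, 1424 and 3182 in PBS. Replicate 3 was far above the other libraries in both H-151 and PBS, and SR-717 replicate 1 was far below all others. The fold change was -0.37 ± 0.58 on the log2 scale in SR-717 against PBS (-1.77 to 1.03), 0.06 ± 0.47 in H-151 against PBS (-1.05 to 1.16) and -0.43 ± 0.56 in SR-717 against H-151. Relative to Col1a1, Ibsp ran from 0.0962 times in SR-717 replicate 1 to 0.323 times in H-151 replicate 3, and all groups overlapped.

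Spp1 (chr5:104435118-104441050, plus strand) encodes osteopontin. Its TPM were 2985, 4884 and 3814 in SR-717, 3312, 2339.98 and 4395 in H-151 and 4032, 2799.8 and 7130.4 in PBS. Its lowest library was H-151 replicate 2, and in TPM SR-717 replicate 1 lay above only that library and PBS replicate 2. The log2 fold change was -0.19 ± 0.42 in SR-717 against PBS (-1.21 to 0.83), -0.45 ± 0.45 in H-151 against PBS (-1.53 to 0.62) and 0.26 ± 0.34 in SR-717 against H-151. Without PBS replicate 3 the H-151 value was 0.06 and the SR-717 value 0.32.

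Osteocalcin is secreted by mature osteoblasts and binds hydroxyapatite after vitamin K-dependent carboxylation. Bglap TPM were 235.9, 1048 and 1566 in SR-717, 1055, 999.99 and 1055 in H-151 and 542, 843.7 and 1152 in PBS. Bglap2 TPM were 311, 1562 and 2153 in SR-717, 1570.2, 1612 and 1869 in H-151 and 792, 1302 and 1561 in PBS. The SR-717 group spanned the whole range of both genes, and the H-151 libraries lay close together, in TPM above the highest PBS library for Bglap2 but not for Bglap. In CPM, Bglap2 in H-151 (360.3 to 529.7) overlapped PBS (195.6 to 412.9), so the separation in TPM, by less than 10 TPM between 1570.2 and 1561, depends on the scale.

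The log2 fold change of Bglap2 in H-151 against PBS was 0.49 ± 0.30 (-0.21 to 1.20, unadjusted p = 0.141 in edgeR's quasi-likelihood test), the largest of the 30 fold changes, and that of Bglap was 0.31 ± 0.29 (-0.39 to 1.01). Under the replicate block Bglap2 was at 0.54 ± 0.16 (0.14 to 0.94), with an unadjusted p of 0.0171 and an adjusted p of 1, and Bglap at 0.38 ± 0.19. Without PBS replicate 3, Bglap2 was at 0.77 and Bglap at 0.66, with unadjusted p of 0.0289 and 0.0244 and adjusted p of 1.00 for both in edgeR. Without PBS replicate 1 they were at 0.27 and 0.07. In SR-717 against PBS, Bglap was at 0.22 ± 0.63 (-1.31 to 1.74) and Bglap2 at 0.19 ± 0.64 (-1.35 to 1.73), and without SR-717 replicate 1 at 0.67 and 0.66. The replicate block turned these to -0.04 and -0.09. SR-717 against H-151 gave -0.10 ± 0.58 for Bglap and -0.31 ± 0.60 for Bglap2.

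Bglap2 took 58.5%, 61.5% and 59.5% of the counts of both osteocalcin genes in the SR-717 libraries, 61.4%, 63.3% and 65.5% in H-151 and 61.0%, 62.3% and 59.2% in PBS. The groups overlapped, and the division of reads noted above limits these shares.

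Summed osteocalcin relative to Col1a1 compares the late product with the matrix. In TPM the ratio was 0.0921, 0.252 and 0.286 in SR-717, 0.242, 0.311 and 0.321 in H-151 and 0.154, 0.176 and 0.248 in PBS. H-151 replicate 1 lay just inside the PBS range and the other H-151 libraries above it. The mean log2 ratio was 0.62 higher in H-151 than in PBS (two-sided exact permutation p = 0.2, adjusted p = 0.6), and SR-717 minus PBS was -0.01 (exact permutation p = 1). The SR-717 value depended on single libraries, at 0.51 without SR-717 replicate 1, -0.31 without SR-717 replicate 3 and 0.19 without PBS replicate 3.

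**Figure D3:**
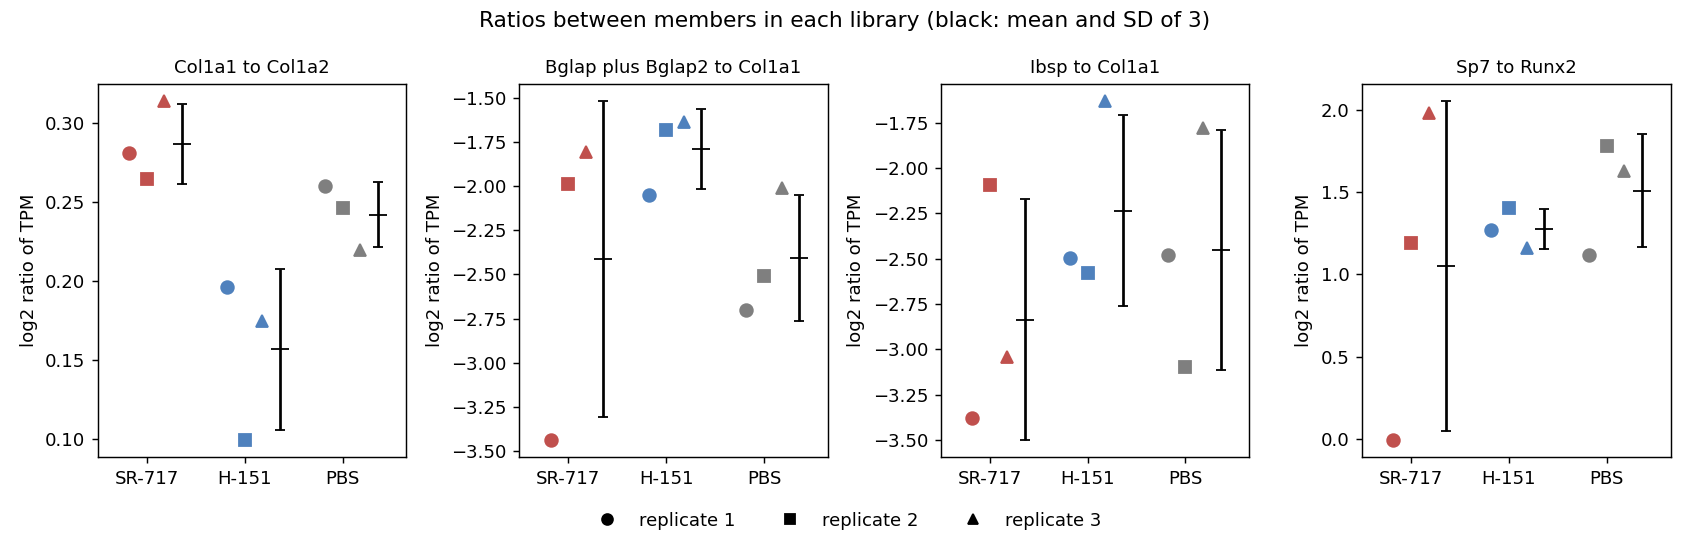
Log2 ratio of TPM (vertical axes, each with its own range) between members in the 9 libraries, with colors for groups and black bars for the mean and SD of 3 libraries. Col1a1 to Col1a2 falls in a separate band in each group, whereas the other 3 ratios overlap and take their lowest value in SR-717 replicate 1.

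All 45 pairs of members were then examined in TPM, a step added after the first ratios were seen. In TPM, ratios did not overlap for 1 pair in SR-717 against PBS, 9 pairs in H-151 against PBS and 5 in SR-717 against H-151. These counts depend on the scale, since some of the pairs overlap in CPM. Among them are Runx2 and Sparc to Bglap2 in H-151 against PBS and Col1a1 to Sparc in SR-717 against H-151. The share over all pairs of genes in the table was not computed. Of the 9 pairs, 5 set another member against Bglap2, and in each Bglap2 was relatively higher in H-151. They were Runx2, Sp7, Col1a1, Alpl and Sparc, and Sp7 and Alpl were also apart against Bglap. The widest was Sp7 to Bglap2, at log2 ratios of -4.25 to -3.90 in H-151 and -3.46 to -3.03 in PBS. In CPM, 18.3% of all tested genes had a ratio to Bglap2 that did not overlap in H-151 against PBS, compared with 0.256% in SR-717 against PBS and 1.16% in SR-717 against H-151, so a separated ratio to Bglap2 was common across the table in that comparison. Ibsp to Spp1 was apart in H-151 against PBS and in SR-717 against H-151, with log2 ratios of -0.78 to -0.58 in H-151, -1.37 to -0.98 in PBS and -2.38 to -1.01 in SR-717. The share of all tested genes whose ratio to Spp1 was apart was not computed. Pairs that share a gene are not independent.

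By their median, the members varied more between libraries than all genes did. The median SD of log2 CPM over the 9 libraries was 0.59 for the members and 0.29 for 13509 genes with a mean of at least 1 CPM. This did not hold for Col1a1 (SD 0.30) and Col1a2 (0.29), which were near the median of all genes. The ratio of the highest to the lowest CPM was 6.18 for Bglap2, 5.92 for Bglap, 5.41 for Sp7, 5.21 for Ibsp, 4.16 for Alpl, 3.24 for Spp1, 2.91 for Sparc and 2.10 for Runx2. SR-717 replicate 1 set the lowest value of 8 members, and without it the ratio was 2.78 for Bglap2, 2.95 for Bglap, 2.86 for Sp7, 2.49 for Ibsp, 2.46 for Alpl and 1.74 for Sparc, with Spp1 widest at 3.24. The median SD without it was 0.47 for the members and 0.25 for the 13509 genes, with Col1a1 (0.22) and Col1a2 (0.19) below the latter. Little of the members' spread over the 9 libraries lay between groups. The median share of the sum of squares between groups was 9.17% for the members, from 0.871% for Runx2 to 22.8% for Sparc, and 14.4% for all genes.

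**Figure D4:**
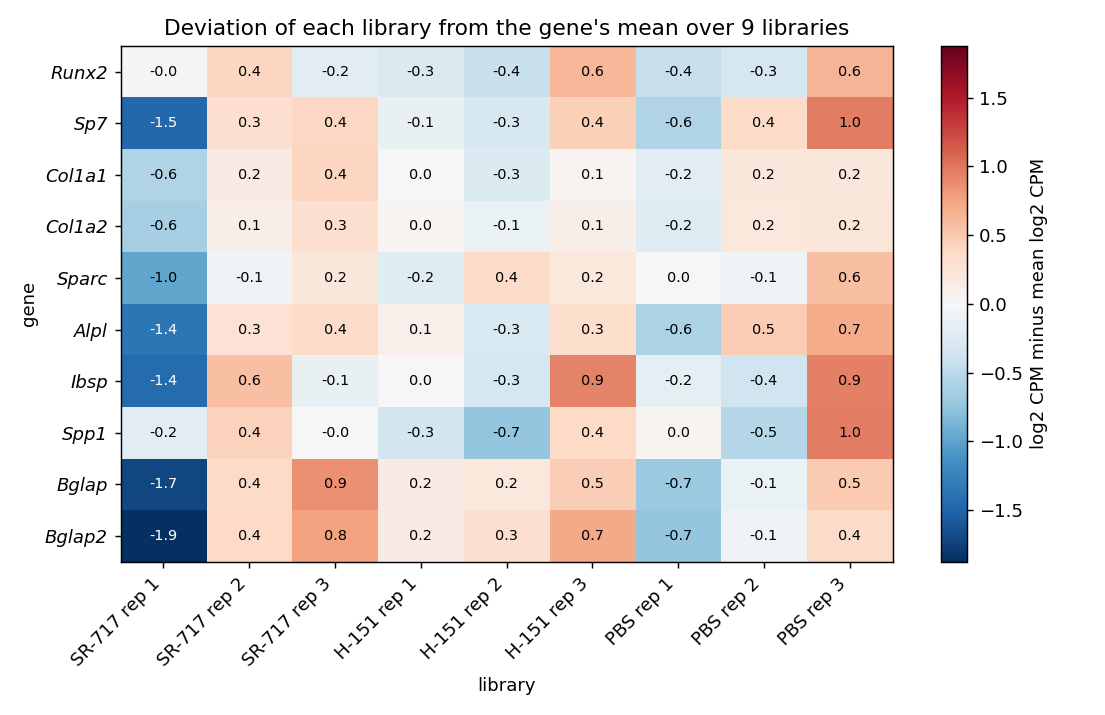
Log2 CPM of each gene (rows) in each library (columns) minus the gene's mean over 9 libraries, in red above and blue below the mean. SR-717 replicate 1 is blue for Sp7 (-1.48) and nearly white for Runx2 (-0.04), and PBS replicate 3 is red for every gene.

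Sp7, Alpl and the collagen chains moved together over the libraries, and Runx2 moved more with Ibsp and Spp1. This is described by Pearson's r of log2 CPM over 9 libraries that share their tissue, depth scaling and treatment groups. Sp7 went with Alpl (r = 0.98), Col1a2 (0.95) and Col1a1 (0.91), Col1a1 with Col1a2 (0.98) and Bglap with Bglap2 (0.99). Runx2 went with Spp1 (0.85) and Ibsp (0.70), and was weakly related to Sp7 (0.52), Bglap (0.32), Col1a1 (0.29) and Sparc (0.25). Over all 45 pairs the median r was 0.77, the lowest 0.24 for Bglap2 with Spp1. SR-717 replicate 1 carried part of this. Without it the median r was 0.53, 9 pairs and not 19 exceeded 0.8, and Col1a1 with Sparc went from 0.61 to 0.06. Runx2 with Ibsp rose from 0.70 to 0.98 and Runx2 with Sp7 from 0.52 to 0.77, and Sp7 with Alpl stayed at 0.96.

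**Figure D5:**
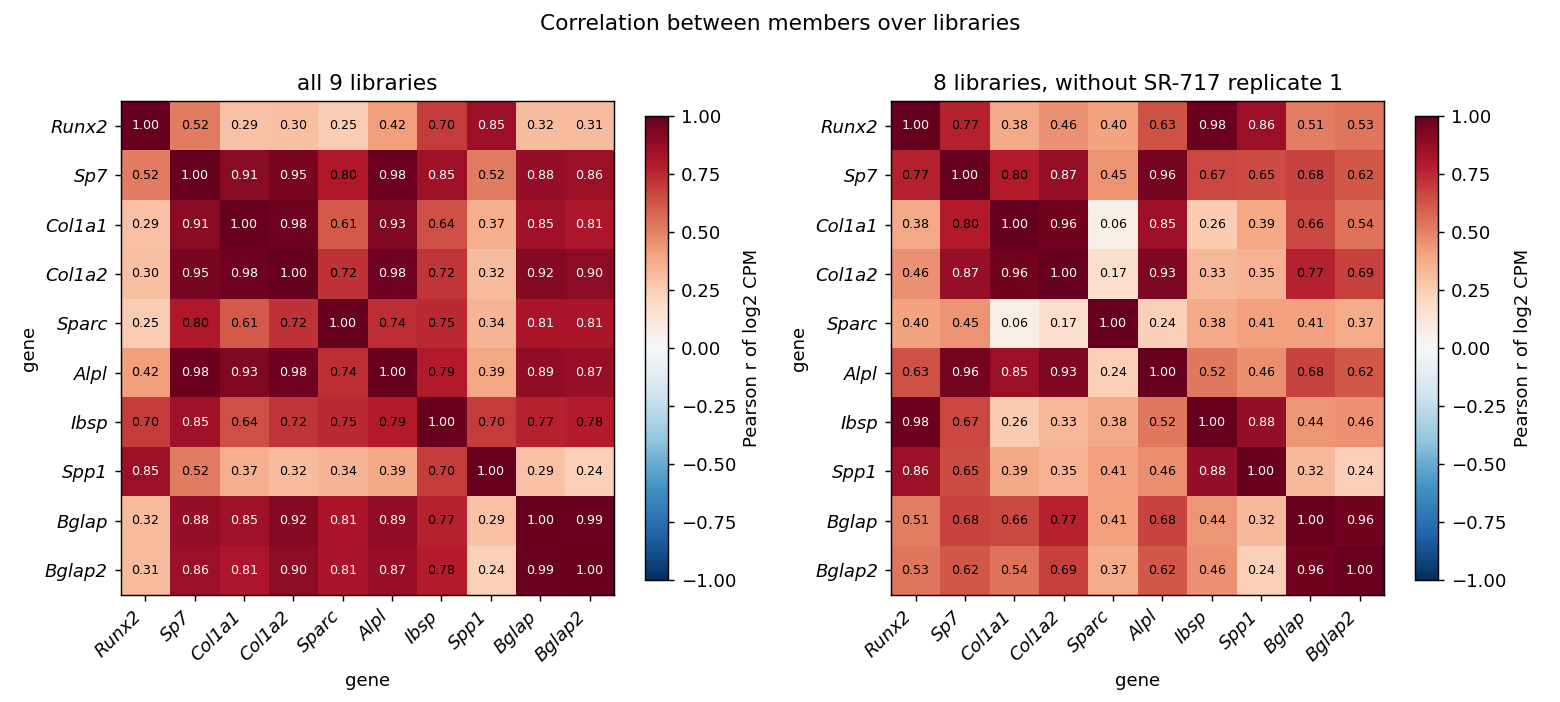
Pearson's r of log2 CPM between each pair of the 10 genes (both axes), over all 9 libraries at left and over the 8 libraries without SR-717 replicate 1 at right. Runx2, Ibsp and Spp1 are related at 0.86 to 0.98 at right, and Sparc with Col1a1 goes from 0.61 to 0.06.

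Outside the members, the genes whose log2 CPM followed the mean standardized level of the 10 genes most closely among 13499 candidates were Slc37a3, Rerg, Tcf7 (r = 0.99 each), Fgfr2 (0.99) and Col13a1 (0.99). Tcf7 encodes a Wnt-responsive transcription factor, Fgfr2 a fibroblast growth factor receptor and Col13a1 a transmembrane collagen. Without SR-717 replicate 1 their r ranged from 0.97 to 0.98. The genes nearest to Bglap were Ptdss1 (0.98), Fhod3 (0.98), Nicn1 (0.98), Cops4 (0.97) and Ripor3 (0.97), and without that library r fell to between 0.93 and 0.96.

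Other genes of the pathway came from 3 lists, which were drawn up with earlier results of these data known. In all 3 the summed CPM was lowest in SR-717 replicate 1 and highest in PBS replicate 3. It was 895 and 1882 for osteoblast regulators, 6573 and 9655 for collagen folding, and 851 and 2906 for mineralization. The tallies of signs in the lists were not repeated without these libraries. Of 12 osteoblast regulators, 11 were tested and 0 were called in each comparison, with 9 of 11 fold changes negative in SR-717 against PBS (median -0.18) and 8 in H-151 against PBS (median -0.14), where 47.8% and 55.8% of all genes were. The largest was Pth1r, the parathyroid hormone receptor, also a marker of hypertrophic cartilage. Its CPM were 109.2, 395.1 and 392.2 in SR-717, 400.4, 368.9 and 458.0 in H-151 and 217.6, 527.7 and 605.2 in PBS, and it was at -0.59 ± 0.58 in SR-717 against PBS.

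All 13 genes for folding and processing type I collagen were tested, and 0 were called in each comparison. Their fold changes were negative for 13 of 13 in SR-717 against PBS (median -0.17) and for 13 of 13 in H-151 against PBS (median -0.11), with the same PBS libraries in both and 47.8% and 55.8% of all genes negative. Both tallies include PBS replicate 3, where the list summed to 9655 CPM, beside 7890 and 8117 CPM in PBS replicates 1 and 2. Library values of 2 genes did not overlap in either comparison, beside 3.75% and 3.87% of all tested genes. They were Bmp1, which encodes the protease that cuts off the C-propeptide of procollagen, and Adamts2, which encodes the protease for the N-propeptide, both named after their values were seen. Bmp1 CPM were 494.4 to 573.5 in SR-717, 459.3 to 568.1 in H-151 and 604.3 to 677.8 in PBS, with log2 fold changes of -0.28 ± 0.16 and -0.31 ± 0.15 against PBS. Adamts2 CPM were 231.9 to 265.0 in SR-717, 241.4 to 265.4 in H-151 and 267.5 to 278.2 in PBS. In SR-717 against H-151 the only gene apart was P4ha1, beside 5.18% of all tested genes. P4ha1, a subunit of prolyl 4-hydroxylase also named after its values were seen, was at 166.9 to 181.2 CPM in SR-717 and 156.7 to 164.7 CPM in H-151. The gene with the largest change was Plod2, a lysyl hydroxylase, at -0.47 ± 0.31 in SR-717 against PBS, with CPM of 99.7, 70.7 and 68.5 in SR-717 and 103.2, 73.5 and 153.8 in PBS.

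Of 14 genes for mineralization and osteocalcin maturation, 14 were tested and 0 called in each comparison, with 11, 9 and 12 negative fold changes (medians -0.30, -0.06 and -0.17) beside 47.8%, 55.8% and 46.6% of all genes. Enpp1, which makes the mineralization inhibitor pyrophosphate, was named after its values were seen as the only one of the 14 whose groups did not overlap (3.75% of all tested genes in SR-717 against PBS), at 54.8 to 89.8 CPM in SR-717 and 94.0 to 126.7 CPM in PBS (log2 fold change -0.45 ± 0.24). Mepe, an osteocyte matrix protein, had the largest change, -0.82 ± 0.44 in SR-717 against H-151, from CPM of 7.70, 23.6 and 14.8 in SR-717 and 33.2, 30.0 and 17.7 in H-151.

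Markers of other cell types differed between the same libraries, given as the summed CPM of each list. Not all followed the osteoblast genes, since the 4 endothelial markers summed to between 724.1 and 878.1 CPM in all 9 libraries. The 8 neutrophil markers summed to 14200, 3879 and 2548 CPM in SR-717 replicates 1, 2 and 3, to 1329 to 4696 in H-151 and to 588 to 3479 in PBS. The 8 chondrocyte markers summed to 749 CPM in SR-717 replicate 1 and 2099 in PBS replicate 1, and to between 5157 and 14996 in the other 7. Those 2 libraries were also the lowest for Sp7, Alpl, Bglap and Bglap2. The 5 osteocyte markers ran from 134.3 CPM in PBS replicate 1 to 1060.1 CPM in PBS replicate 3, the library highest for Runx2, Sp7, Alpl, Ibsp, Spp1 and Sparc, and Fgf23 among them was at 0 in some libraries. The mineralization list also holds 3 of these 5, Dmp1, Mepe and Phex. The 7 skeletal muscle markers were lowest in the same PBS replicate 3, at 4660 CPM, and between 10976 and 28045 in the other 8. The 7 periosteal and fibrous markers summed to 9858 to 17188 CPM in SR-717, 10367 to 16449 in H-151 and 11869 to 16504 in PBS, with the highest sum in SR-717 replicate 1. The 8 osteoclast markers, which mark another source of Spp1, summed to 5676 to 9567 CPM in SR-717, 6003 to 10556 in H-151 and 7892 to 10722 in PBS. The 6 macrophage markers summed to 975.6 to 1767 CPM in SR-717, 752.5 to 961.0 in H-151 and 774.4 to 1187 in PBS. The SR-717 and H-151 groups thus did not overlap, with a narrow gap from 961.0 to 975.6 CPM. Of single tested genes 5.18% were apart in that comparison. The 4 hypertrophic chondrocyte markers, the 5 erythroid, the 6 B lineage and the endothelial markers overlapped between all groups, and the 4 adipocyte markers summed to at most 31.9 CPM with Lep at 0 in some libraries. Among 7 keratinocyte markers Krt5, Krt14, Krt1, Krt15 and Lor were at 0 in some libraries and the sum was at most 10.4 CPM. The part of these tissues in the members' values was not tested.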

How the data were processed

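Callus mRNA of 9 libraries, 3 in each of the H-151, PBS and SR-717 groups assigned from the sample labels, was sequenced by a service company. The values deposited are expected counts for each gene, not normalized, with totals of 16987398 to 23272480 per library, of which 8.91% of values were not whole. The authors also deposited TPM, scaled for transcript length. The build was mm10 per the submitters' processing notes. The aligner, counting program and annotation are not given in the sources used here. The labels' extraction text speaks of cell lines, whereas the samples are labelled bone.

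Expected counts were rounded, which the design had assumed, filtered with filterByExpr (count 10, total 15), scaled by TMM and tested over all genes with edgeR 4.0.16 in R 4.3.3 (glmQLFit and glmQLFTest, the 6 libraries of each comparison, no covariates). SE and 95% intervals came from the quasi-likelihood F. p-values were adjusted by Benjamini-Hochberg over all genes tested. Ratios were tested with scipy 1.17.1, and the edgeR script was tested on simulated data. Genes named were the 10 members, in each list genes at an unadjusted p under 0.05 and a 1.5-fold change or else the gene of largest change, and the 5 genes most like the members' mean and Bglap. Myh8, Bmp1, Adamts2, P4ha1 and Enpp1 lie outside this rule and were named after their values were seen. The members and lists were chosen with earlier results of these data known. Same-numbered libraries deviated together, with r of 0.65, 0.34 and 0.14 between SR-717 and PBS and 0.30, 0.49 and 0.50 between H-151 and PBS for replicates 1, 2 and 3, and 0.34, 0.06 and 0.08 between SR-717 and H-151. No label gives such a pairing. The block by number was prompted by these data for the first 2 comparisons and not for the last, but it was fitted in all 3. Pairing of both treated groups with PBS would also pair SR-717 with H-151, so the pairing is uncertain. Alternatives were DESeq2 1.42.0 (Wald test, and its size factors in edgeR), no filter, all 9 libraries in 1 fit, the replicate block, CPM in place of TPM and each library left out. The KEGG columns of the table were not used.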

Additional observations from a re-analysis of the deposited data

How the results depend on the processing

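With 3 libraries a group, each library moved the members' fold changes, and 0 members passed an adjusted p under 0.05 in any of the 330 values under the alternatives. With edgeR's other size factors, DESeq2, no filter and all 9 libraries in 1 fit, every member kept its direction in the 3 comparisons. The replicate block reversed Bglap (-0.038) and Bglap2 (-0.095) in SR-717 against PBS and no other direction. In SR-717 against H-151, same-numbered libraries deviated together with r of only 0.34, 0.06 and 0.08. There the replicate block left the genes at the unadjusted thresholds at 143, beside 107 without it.

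Leaving out each library in turn gave 41 reversed directions of 180. In SR-717 against PBS the log2 fold changes ran over Runx2 -0.17 to 0.45, Col1a1 -0.25 to 0.20, Col1a2 -0.28 to 0.15, Alpl -0.65 to 0.032, Bglap -0.30 to 0.67, Bglap2 -0.28 to 0.66, Ibsp -0.90 to 0.16 and Spp1 -0.47 to 0.32. In H-151 against PBS they ran over Runx2 -0.39 to 0.43, Sp7 -0.64 to 0.063, Col1a2 -0.19 to 0.016, Alpl -0.51 to 0.032, Ibsp -0.40 to 0.59, Spp1 -0.82 to 0.056 and Sparc -0.19 to 0.17, and 2 members, Bglap and Bglap2, reached the unadjusted thresholds without PBS replicate 3 (0 to 2 members over the 6 libraries). In SR-717 against H-151 they ran over Runx2 -0.18 to 0.40, Sp7 -0.36 to 0.31, Col1a1 -0.11 to 0.33, Col1a2 -0.22 to 0.20, Alpl -0.40 to 0.24, Bglap -0.61 to 0.35, Bglap2 -0.77 to 0.15 and Ibsp -0.96 to 0.016. Of the 41, 9 arose without SR-717 replicate 1, 8 without PBS replicate 3 and 6 without H-151 replicate 3. Sp7 in SR-717 against PBS kept its sign but ran from -0.73 to -0.013. The cause was not tested.

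Genes at an unadjusted p under 0.05 and a 1.5-fold change, 73, 60 and 107 in the 3 comparisons, were 443 and 262 with the replicate block in SR-717 and H-151 against PBS, 194, 127 and 223 with no filter, 176 in SR-717 against PBS and 171 in SR-717 against H-151 with 1 fit of 9 libraries, and 138 and 209 in these 2 comparisons with DESeq2, which called 1 gene in SR-717 against H-151. With a library left out they ran from 95 to 319 in SR-717 against PBS, from 43 to 698 in H-151 against PBS (most without PBS replicate 2) and from 64 to 661 in SR-717 against H-151 (most without SR-717 replicate 3). The median r between members was 0.77, and 0.53 without SR-717 replicate 1. The lowest count of a member in any library was 1154, so the spread between libraries and not counting error set the width of the intervals.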
